A study of Homo sapiens with 6 samples.

Results

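The genes described here are the transcription factor NRF2, encoded by NFE2L2, its inhibitor KEAP1 and 7 genes regarded as NRF2 targets, namely NQO1, HMOX1, TXNRD1, SRXN1, PGD, OSGIN1 and ME1. They were taken by symbol from the deposited gene table, which held a row for all 9 of them among 58735 genes. RNA-seq was performed on PANC-1, an established human cell line of pancreatic ductal adenocarcinoma. The 3 si-NC samples had received a control siRNA and the 3 si-METTL16 samples an siRNA against METTL16, an RNA N6-adenosine methyltransferase, and no other treatment separated the groups. A further label of the control samples calls them WT. The methods call the samples biological triplicates and the transfection stable, without a statement of separate cultures, so the p-values measure the spread between these samples only. The sources used here list 3 siRNAs against METTL16 without naming the one sequenced, so it cannot be told apart whether the si-METTL16 numbers mark replicates or siRNAs.

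NRF2 is a basic leucine zipper transcription factor that binds antioxidant response elements together with a small MAF protein. In resting cells KEAP1 holds it and presents it to a CUL3 and RBX1 ubiquitin ligase for degradation. Oxidants and electrophiles modify cysteines of KEAP1, after which NRF2 accumulates and raises the transcription of enzymes that detoxify quinones, degrade haem, reduce thioredoxin and make NADPH. In pancreatic cancer the pathway is known for supporting redox balance. NRF2 is controlled mainly at the level of the protein, which RNA-seq does not measure.

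The letters of the antioxidant response element were looked for near the start sites of these genes, because the element is what the target genes are thought to share. The core TGACNNNGC and the AP-1 motif TGANTCA, which can lie within it, were searched on both strands. Start sites and promoter windows were those of RefSeq on GRCh38, in which 8 of the 9 genes matched. HMOX1 was not among them. Between 1000 bases before and 50 bases after a start site, 6 of the 8 genes held the core at some start site, which were NQO1, OSGIN1, PGD, TXNRD1, ME1 and KEAP1, the last at only 1 of its 2 start sites. Counted by start site, 7 of 11 windows of these genes held the core, where 33.7% of all 35116 promoters of this length held it and 23.5% held the AP-1 motif. In the shorter window of 250 bases before to 50 after, the core was found in 5 of the 11 windows, from 4 of the 8 genes, and in 13.3% of all promoters, and the AP-1 motif in 7.71% of all promoters. NFE2L2 and SRXN1 had no match to the core in these windows. The AP-1 motif was found in the longer window of NQO1, ME1, OSGIN1 and SRXN1, and in the shorter window of ME1 and OSGIN1 only. That of SRXN1 lay at position -272 and reads TGAGTCAGC with its next bases, with a G where the searched core has a C. The absence of a match for SRXN1 therefore holds only for the core as written here. The matches below are printed 5′ to 3′ along the strand that carries the motif, with 10 flanking bases on each side and the motif in capitals. Those of NQO1 and OSGIN1 are shown because these genes were lower after silencing. That of ME1 is shown because 1 of its 2 cores has the same 9 letters as that of NQO1, and that of TXNRD1 because no AP-1 motif lies in it.
NQO1 core: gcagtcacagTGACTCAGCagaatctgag
ME1 core: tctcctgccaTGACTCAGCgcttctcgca
OSGIN1 core: agacaatctgTGACTTGGCcccagttttc
OSGIN1 AP-1: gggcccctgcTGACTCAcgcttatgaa
TXNRD1 core: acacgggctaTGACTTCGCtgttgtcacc
The NQO1 core lay at position -455 relative to the start site, chr16:69727007-69727015 on the minus strand, and the ME1 core shown at position -137, chr6:83431180-83431188 on the minus strand. In both of them the AP-1 motif overlaps the core. The OSGIN1 core lay at position -557, chr16:83952683-83952691 on the plus strand, and its AP-1 motif, which overlaps no core, at position -97, chr16:83953143-83953149. The TXNRD1 core shown lay at position -99, chr12:104215680-104215688 on the plus strand. A match describes letters in a window, and no binding was measured.

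METTL16, the targeted gene, was measured at 96.3 ± 4.58 CPM (SD, n = 3) in the controls and fell to 34.5 ± 0.571 CPM after silencing (edgeR adjusted p = 8.3e-05), where CPM is the read count relative to the TMM-scaled size of the library. The libraries held from 15725298 to 18054436 counts, so that 3 counts correspond to 0.167 to 0.192 CPM. Among 6 epithelial and mesenchymal markers of PANC-1, the summed level ranged from 4345 to 5780 CPM in si-NC and from 4960 to 5319 CPM in si-METTL16 samples. This sum is carried by KRT8, KRT18 and VIM, which were not called, while KRT19 fell from 191 to 72.0 CPM (log2 fold change -1.40, edgeR adjusted p = 0.00111) and KRT7 fell by 0.84 on the log2 scale (adjusted p = 0.0117). The 5 acinar markers summed to at most 0.178 CPM and the 4 islet markers to at most 0.321 CPM, with CPA1, AMY2A and GCG at 0. The 4 endothelial markers summed to 1.30 to 1.48 CPM in si-NC and 0.385 to 0.890 CPM in si-METTL16 samples. The 5 leukocyte markers summed to 8.76 to 9.55 and 9.57 to 11.6 CPM, with CD3E at 0. Most of the leukocyte sum is CD68, which rose by 0.67 on the log2 scale (adjusted p = 0.00928), and CD14, which fell by 1.00 (adjusted p = 0.0409). The part of these marker levels in the results was not tested. In a bulk sample, fewer cells that express a gene and less RNA per cell cannot be told apart.

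The 9 genes did not move together. HMOX1 rose, NQO1 and OSGIN1 fell, and the other 6 did not pass the threshold. A gene was called where the Benjamini-Hochberg adjusted p of edgeR's quasi-likelihood test, fitted and adjusted over all 15089 genes with enough counts, was under 0.05. All 9 genes were among those tested. The calls made up 3 of 9 genes, where 35.9% of all tested genes were called. For the single gene called higher the share over all tested genes was 18.4%, and for the 2 called lower it was 17.5%, so the count of calls among these genes was near the background in each direction. The median log2 fold change was 0.03 over the 9 genes, -0.20 over the 7 targets and -0.0045 over all tested genes. The values of the 2 groups did not overlap for 5 of the 9 genes, against 50.9% of all tested genes.

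**Figure D1:**
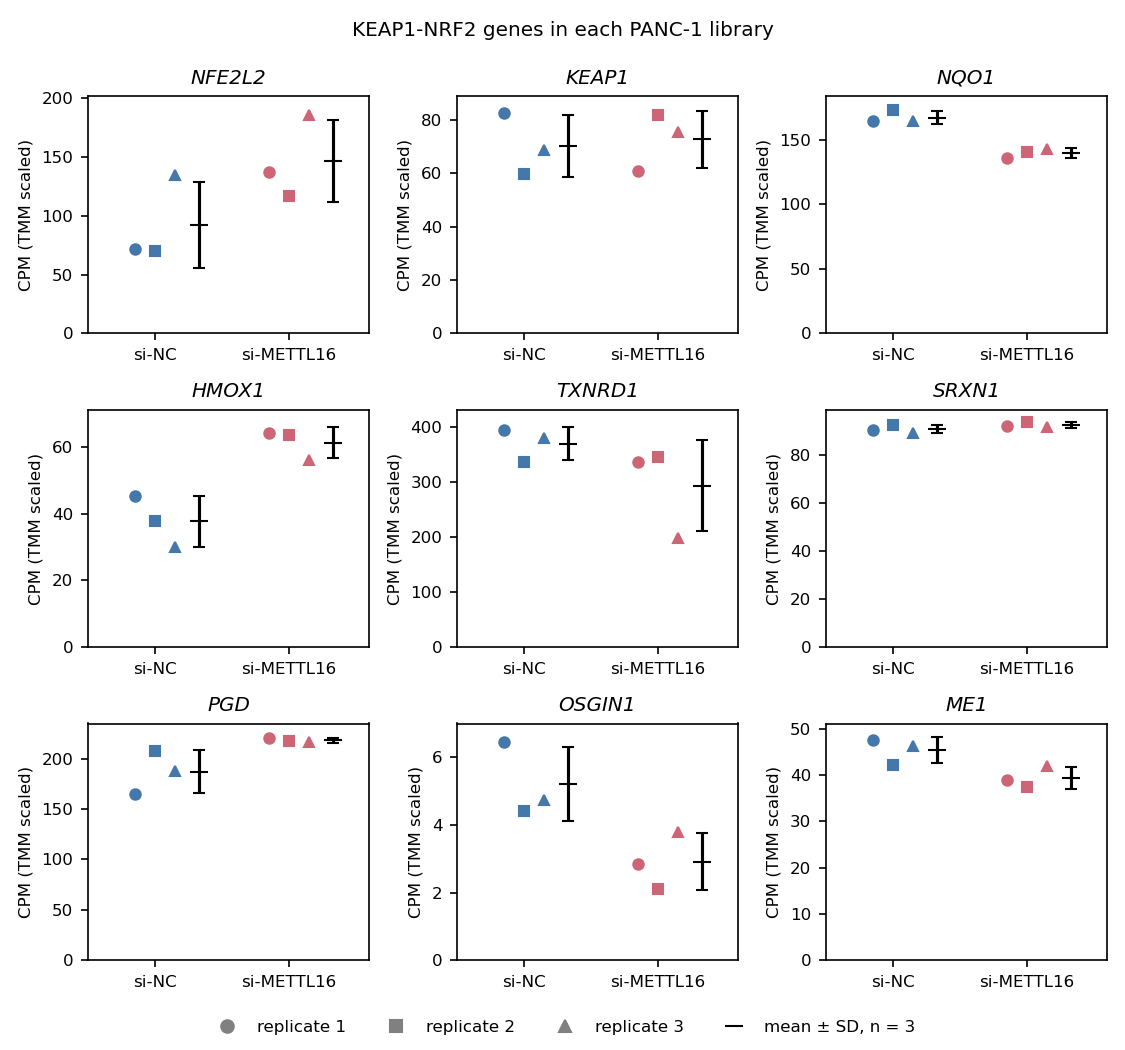
CPM after TMM scaling (vertical axes, each from 0) of the 9 genes in the 3 si-NC and the 3 si-METTL16 libraries, with a symbol for each replicate number and the mean ± SD of each group beside them. The groups are apart for NQO1, HMOX1, PGD, OSGIN1 and ME1 and overlap for NFE2L2, KEAP1, TXNRD1 and SRXN1.

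NFE2L2 (ENSG00000116044, chromosome 2 from 177227595 to 177392697 in the deposited table, GRCh38) encodes NRF2 itself. Its level was 72.1, 70.1 and 135 CPM in si-NC replicates 1, 2 and 3 and 138, 117 and 185 CPM in si-METTL16 replicates 1, 2 and 3. The third si-NC library lay well above the other si-NC libraries and above the lowest si-METTL16 library, so the groups overlapped. The group means were 92.3 ± 36.7 and 147 ± 35.2 CPM (SD, n = 3). The log2 fold change was 0.67 (SE 0.28), with an adjusted p of 0.107 in edgeR's quasi-likelihood test, Benjamini-Hochberg adjusted. The spread of NFE2L2 within si-NC was larger than that of 91.7% of the tested genes. With 1 library left out the log2 fold change ranged from 0.46, without si-METTL16 replicate 3 (edgeR adjusted p = 0.282), to 1.04, without si-NC replicate 3 (adjusted p = 0.0129, the only one of these fits that called it), and the Wald test of DESeq2 on all 6 samples gave 0.67 with an adjusted p of 0.0289. In GENCODE v44, 2035 exonic bases within these bounds are shared with a long non-coding RNA on the same strand (ENSG00000213963), which held 430 counts over the 6 libraries.

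KEAP1 (ENSG00000079999, chromosome 19 from 10486120 to 10503741) encodes the adaptor that brings NRF2 to its ubiquitin ligase. It stood at 82.7, 59.6 and 68.6 CPM in si-NC and at 60.9, 81.7 and 75.2 CPM in si-METTL16 replicates 1, 2 and 3. The highest value of all was a control and the lowest was a control, so the silenced samples lay inside the control range. The means were 70.3 ± 11.6 and 72.6 ± 10.6 CPM (SD, n = 3). The log2 fold change of 0.05 (SE 0.15, edgeR adjusted p = 0.833) turned to -0.066 without si-NC replicate 2 and to -0.048 without si-METTL16 replicate 2. The ratio of NFE2L2 to KEAP1 in the deposited FPKM, the count scaled to gene length and library size, was 0.620, 0.836 and 1.39 in si-NC and 1.61, 1.02 and 1.75 in si-METTL16 replicates 1, 2 and 3. This ratio overlapped between the groups because of si-NC replicate 3. The size of the ratio depends on the gene lengths behind FPKM, which were 11879 bases for NFE2L2 and 8445 bases for KEAP1. The si-NC means were 7.82 FPKM for NFE2L2 and 8.37 FPKM for KEAP1. In CPM per kilobase of the MANE Select transcript, a scale described below, they were 37.7 for NFE2L2 and 27.4 for KEAP1. A ratio below 1 therefore does not by itself place NFE2L2 below KEAP1.

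NQO1 (ENSG00000181019, chromosome 16 from 69706996 to 69726951) encodes a quinone reductase that is widely used as a readout of NRF2 activity. Its counts were 2775, 2935 and 2885 in si-NC and 2226, 2198 and 2571 in si-METTL16 replicates 1, 2 and 3, which correspond to 164, 173 and 165 CPM and to 136, 141 and 143 CPM. All silenced libraries were lower than all controls. The difference was small beside those of other called genes but exceeded a narrow spread: the means were 167 ± 4.94 and 140 ± 3.80 CPM (SD, n = 3), and silenced cells kept 83.6% of the control level. NQO1 fell by 0.26 on the log2 scale (SE 0.05, adjusted p = 0.00979 by edgeR's quasi-likelihood test, Benjamini-Hochberg adjusted). The median absolute log2 fold change was 0.61 over all called genes and 0.33 over all tested genes. The call held under all 15 alternative settings, with adjusted p from 0.00524 to 0.0358.

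HMOX1 (ENSG00000100292, chromosome 22 from 35380361 to 35394214) encodes haem oxygenase 1, which opens haem to biliverdin and releases iron. BACH1 represses it at the sites where NRF2 can bind. Its counts were 768, 642 and 526 in si-NC and 1055, 995 and 1008 in si-METTL16 replicates 1, 2 and 3. In CPM these were 45.4, 37.8 and 30.0 in si-NC and 64.3, 63.8 and 56.1 in si-METTL16. Every silenced library stood above every control, and the controls were more spread than the silenced libraries. The means were 37.8 ± 7.72 and 61.4 ± 4.61 CPM (SD, n = 3). HMOX1 rose 1.63-fold, a log2 fold change of 0.70 (SE 0.15, adjusted p = 0.0107 by edgeR's quasi-likelihood test, Benjamini-Hochberg adjusted). The call held under all 15 alternatives, with log2 fold changes of 0.56 to 0.85 when 1 library was left out.

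TXNRD1 (ENSG00000198431, chromosome 12 from 104215779 to 104350305) encodes the cytosolic thioredoxin reductase, a selenoprotein that uses NADPH to reduce thioredoxin. It had the most counts of the 9 genes, with 395, 337 and 380 CPM in si-NC and 337, 346 and 198 CPM in si-METTL16 replicates 1, 2 and 3. Silenced replicates 1 and 2 lay inside the control range near its lower edge, and replicate 3 was far below all other libraries. The means were 371 ± 30.4 and 294 ± 83.0 CPM (SD, n = 3), with a log2 fold change of -0.33 (SE 0.20, edgeR adjusted p = 0.234). Without si-METTL16 replicate 3 the log2 fold change was -0.11.

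SRXN1 (ENSG00000271303, chromosome 20 from 646615 to 653370) encodes sulfiredoxin, which restores over-oxidised peroxiredoxins. Its values were 90.5, 92.6 and 89.2 CPM in si-NC and 92.2, 93.7 and 91.4 CPM in si-METTL16 replicates 1, 2 and 3. The 6 libraries lay close together and the groups overlapped. The means were 90.8 ± 1.75 and 92.4 ± 1.19 CPM (SD, n = 3), and the log2 fold change was 0.03 (SE 0.06, edgeR adjusted p = 0.74). Only 4.54% of the tested genes in si-NC and 1.78% in si-METTL16 cells had a smaller spread between replicates. In GENCODE v44, 2292 exonic bases of this locus are also annotated on the same strand to ENSG00000270299, which held 25 counts over the 6 libraries.

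OSGIN1 (ENSG00000140961, chromosome 16 from 83948282 to 83966332) encodes oxidative stress induced growth inhibitor 1 and was the lowest of these genes. Its counts were 109, 75 and 83 in si-NC and 47, 33 and 68 in si-METTL16 replicates 1, 2 and 3, or 6.45, 4.42 and 4.73 CPM and 2.86, 2.12 and 3.78 CPM. The groups were apart, with the highest silenced library close to the lowest control. The means were 5.20 ± 1.09 and 2.92 ± 0.835 CPM (SD, n = 3), so that silenced cells held 56.4% of the control level. OSGIN1 fell by 0.83 on the log2 scale (SE 0.26, adjusted p = 0.0461 by edgeR's quasi-likelihood test, Benjamini-Hochberg adjusted). This call was close to the threshold and was lost on leaving out any library but si-METTL16 replicate 3, with adjusted p of 0.0597 to 0.133. Without si-METTL16 replicate 3 the log2 fold change was -1.06 with an adjusted p of 0.0317. In GENCODE v44, 386 exonic bases within these bounds belong to MLYCD on the same strand, which held 584 counts over the 6 libraries.

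PGD (ENSG00000142657, chromosome 1 from 10398592 to 10420144) and ME1 (ENSG00000065833, chromosome 6 from 83210389 to 83431071) encode cytosolic enzymes that make NADPH, the former in the pentose phosphate pathway and the latter from malate. PGD stood at 165, 208 and 188 CPM in si-NC and at 221, 218 and 216 CPM in si-METTL16 replicates 1, 2 and 3. The silenced libraries were all higher and nearly equal, while the controls were spread. The means were 187 ± 21.2 and 218 ± 2.41 CPM (SD, n = 3), and the log2 fold change of 0.22 (SE 0.09) had an edgeR adjusted p of 0.0802. Without si-NC replicate 2, the highest control, it was 0.30 with an adjusted p of 0.0304, and without si-NC replicate 1, the lowest control, 0.14 with an adjusted p of 0.179. The pseudogene PGDP1 held 7 counts beside 20516 of PGD over the 6 libraries. ME1 had values on the other side, at 47.6, 42.2 and 46.2 CPM in si-NC and 38.9, 37.4 and 41.9 CPM in si-METTL16 replicates 1, 2 and 3. The groups of ME1 were apart by a narrow gap. Its means were 45.3 ± 2.77 and 39.4 ± 2.33 CPM (SD, n = 3), with a log2 fold change of -0.20 (SE 0.09, edgeR adjusted p = 0.107). Neither gene passed the threshold on all 6 samples, although the groups of each did not overlap.

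**Figure D2:**
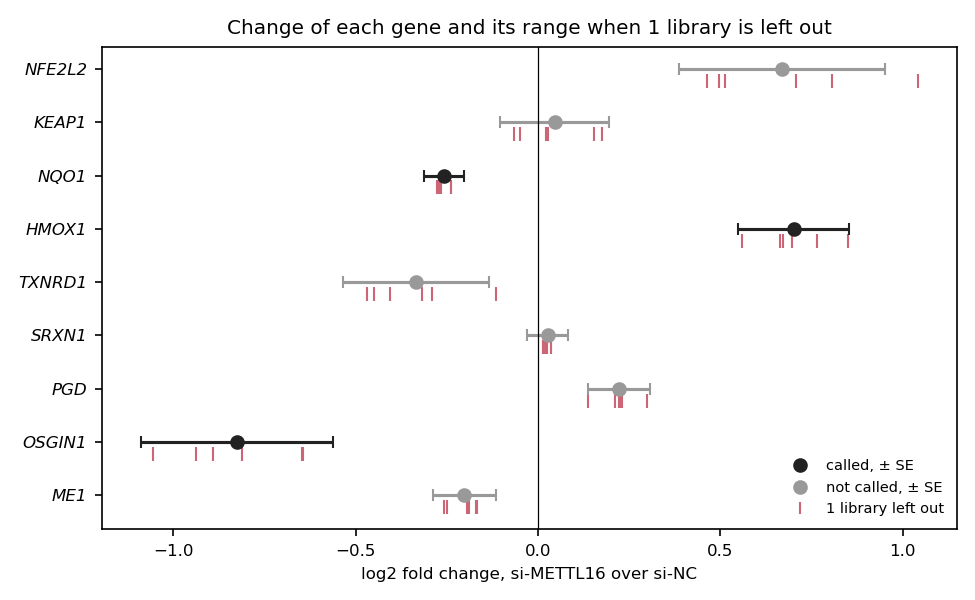
Log2 fold change of si-METTL16 over si-NC (horizontal axis) for each of the 9 genes, with a point and bar for the value ± SE from edgeR on 6 samples and a tick for each fit with 1 library left out. HMOX1 (0.70), NQO1 (-0.26) and OSGIN1 (-0.83) are called, and the ticks of KEAP1 lie on both sides of 0.

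The levels of the genes relative to each other were compared in FPKM, the deposited unit that accounts for gene length. In si-NC cells the order was PGD (42.3 ± 4.80 FPKM, SD, n = 3), SRXN1 (33.8 ± 0.633), NQO1 (29.5 ± 0.862), TXNRD1 (20.5 ± 1.69), ME1 (13.5 ± 0.827), HMOX1 (10.4 ± 2.12), KEAP1 (8.37 ± 1.38), NFE2L2 (7.82 ± 3.11) and OSGIN1 (0.949 ± 0.199). The si-NC values of HMOX1, KEAP1 and NFE2L2 overlapped each other, and every other pair of neighbours in this order was apart. By mean FPKM in si-NC cells, the targets other than OSGIN1 stood above the regulators KEAP1 and NFE2L2, with the overlap just given for HMOX1. In si-METTL16 cells HMOX1 was at 16.7 ± 1.19 FPKM and overlapped with TXNRD1 at 16.1 ± 4.49 FPKM, while ME1 was at 11.6 ± 0.720 FPKM. There the mean of NFE2L2, at 12.2 ± 2.98 FPKM, was above that of ME1, and their values overlapped. The order depends on the gene length behind FPKM. For TXNRD1 the counts and FPKM imply a length of 18142 bases, 4.70 times that of its MANE Select transcript, and for NFE2L2 11879 bases, 4.86 times. CPM per kilobase of the MANE Select transcript was a scale chosen after seeing the data. On it, si-NC cells had means of 96.0 for TXNRD1, 82.4 for PGD, 66.3 for NQO1, 37.7 for NFE2L2 and 35.9 for SRXN1. KEAP1 followed at 27.4 ± 4.53, HMOX1 at 24.3 ± 4.97, ME1 at 13.6 ± 0.829 and OSGIN1 at 2.71 ± 0.569. So NFE2L2 was by its mean no longer among the lowest genes. The means of both regulators were above those of HMOX1 and ME1. The si-NC values of HMOX1, KEAP1 and NFE2L2 overlapped each other here too. Those of NFE2L2 and SRXN1 also overlapped, as did those of TXNRD1 and PGD. ME1 lay below both regulators in every si-NC library, so the order of targets above regulators did not hold on this scale.

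The proteins that act with NRF2 were read from a list of 23 partners and regulators, all tested. Of these, 5 rose and 5 fell (43.5% called, against 35.9% of all tested genes, 18.4% higher and 17.5% lower), with a median log2 fold change of 0.07. The lists were written from general knowledge of the pathway, and some genes stand in more than 1 of them. They were chosen with earlier results of these data known, so the shares called in them are descriptive only. The ligase subunits that work with KEAP1 were higher after silencing. CUL3, the scaffold, stood at 140, 133 and 144 CPM in si-NC and 202, 191 and 185 CPM in si-METTL16 replicates 1, 2 and 3, and rose by 0.48 on the log2 scale (SE 0.06, edgeR adjusted p = 0.00122). RBX1, the RING subunit, rose by 0.39 (SE 0.10, adjusted p = 0.0211). SQSTM1, or p62, an autophagy receptor that competes with NRF2 for KEAP1 and is also a known NRF2 target, fell from 1193 to 683 CPM (log2 fold change -0.80, SE 0.09, adjusted p = 7.9e-04). BACH1, the repressor that shares DNA sites with NRF2, was at 49.3, 51.7 and 49.6 CPM in si-NC and 43.8, 28.9 and 31.0 CPM in si-METTL16 replicates 1, 2 and 3. BACH1 fell by 0.54 on the log2 scale (SE 0.16, adjusted p = 0.0333), and its groups did not overlap. Of the small MAF partners, MAFK rose by 0.65 (SE 0.11, adjusted p = 0.00381), while MAFF had 0.75 (SE 0.45, adjusted p = 0.23) and MAFG -0.44 (SE 0.31, adjusted p = 0.303) and neither passed. Among the paralogues of NRF2, NFE2L3 fell from 194 to 90.4 CPM (log2 fold change -1.10, SE 0.07, adjusted p = 1.4e-04) and NFE2L1 had 0.28 (SE 0.10, adjusted p = 0.0695). PGAM5, a mitochondrial phosphatase that binds KEAP1, rose by 0.65 (SE 0.08, adjusted p = 0.00104). The count of 10 calls fell to 6 without si-NC replicate 1, to 6 without si-NC replicate 2 and to 5 without si-METTL16 replicate 2.

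A further 33 genes known as NRF2 targets outside the 7 were listed, and 26 were tested. Of these, 2 rose and 9 fell (42.3% called, against 35.9% of all tested genes, 18.4% higher and 17.5% lower), with a median log2 fold change of -0.13. The 7 that were too low to test were AKR1B10, AKR1C1, AKR1C2, AKR1C3, ALDH3A1, NR0B1 and CYP4F11. The genes that rose were TXN, which encodes thioredoxin (log2 fold change 0.43, SE 0.07, edgeR adjusted p = 0.00337), and PTGR1, a reductase of reactive aldehydes and ketones (0.59, SE 0.07, adjusted p = 0.00103). Those that fell most were ABCC2, an efflux pump (-1.23, SE 0.33, adjusted p = 0.0253), and SLC48A1, a haem transporter (-1.14, SE 0.29, adjusted p = 0.0188). The paralogue NQO2 fell by 0.69 (SE 0.08, adjusted p = 0.00103), in the same direction as NQO1.

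In the list of 15 genes of the pentose phosphate pathway and NADPH production, 2 rose and 5 fell (46.7% called, against 35.9% of all tested genes, 18.4% higher and 17.5% lower, median log2 fold change -0.12). The list holds PGD and ME1, and neither was called. IDH1, the cytosolic NADP-dependent isocitrate dehydrogenase, fell by 0.77 (SE 0.09, edgeR adjusted p = 0.00103), and NNT, the mitochondrial transhydrogenase, rose by 0.84 (SE 0.05, adjusted p = 1.3e-04). RPIA, a pentose phosphate isomerase, rose by 0.39 (SE 0.10, adjusted p = 0.0198). Of the paralogues of ME1, the mitochondrial ME2 fell by 0.48 (SE 0.15, adjusted p = 0.0453) and ME3 had 0.03 (SE 0.12, adjusted p = 0.886). Without si-METTL16 replicate 1 the list had 4 calls in place of 7.

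The list of 20 thioredoxin and peroxiredoxin genes, to which TXNRD1 and SRXN1 belong, had 3 genes that rose and 7 that fell (50% called, against 35.9% of all tested genes, 18.4% higher and 17.5% lower, median log2 fold change -0.16). TXN, the substrate of TXNRD1, rose as given above. Of the other thioredoxin reductases, TXNRD3 fell by 0.51 (SE 0.11, edgeR adjusted p = 0.0105) and the mitochondrial TXNRD2 had -0.18 (SE 0.08, adjusted p = 0.131). PRDX2, a cytosolic peroxiredoxin and substrate of sulfiredoxin, fell by 0.73 (SE 0.10, adjusted p = 0.00161). The other peroxiredoxins were mixed. PRDX5 fell by 0.47 (adjusted p = 7.2e-04) and PRDX3 rose by 0.17 (adjusted p = 0.0385). PRDX1 (0.38, adjusted p = 0.161), PRDX4 (0.37, adjusted p = 0.179) and PRDX6 (0.007, adjusted p = 0.936) did not pass. TXNIP, the thioredoxin-binding inhibitor, fell by 0.60 (SE 0.13, adjusted p = 0.0115). MSRB3, a methionine sulfoxide reductase, rose by 0.47 (SE 0.13, adjusted p = 0.0276). Without si-NC replicate 1, or without si-METTL16 replicate 3, the list had 6 calls in place of 10.

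Among 5 superoxide dismutase and catalase genes, 4 were tested, and 1 rose and 1 fell (50% called, against 35.9% of all tested genes, median log2 fold change -0.04). The symbol SOD2 stands on 2 rows of the table, and the row with the more counts was used. This gene, the mitochondrial dismutase, stood at 39.2, 46.5 and 54.0 CPM in si-NC and 147, 152 and 66.7 CPM in si-METTL16 replicates 1, 2 and 3. It rose by 1.39 on the log2 scale (SE 0.30, edgeR adjusted p = 0.0113), with the third silenced library nearer to the controls. CAT, catalase, fell from 309 to 171 CPM (-0.85, SE 0.06, adjusted p = 1.5e-04). Of 9 haem and ferritin genes, HMOX1 among them, 2 rose and 2 fell (44.4% called, against 35.9% of all tested genes, median log2 fold change 0.08), and 37.5% were called without HMOX1. HMOX2, the constitutive haem oxygenase, rose by 0.44 (SE 0.09, adjusted p = 0.00734). BLVRA, the reductase that acts on the biliverdin made by HMOX1, fell by 0.50 (SE 0.09, adjusted p = 0.00598). The ferritin chains FTL (log2 fold change 0.11, adjusted p = 0.149) and FTH1 (0.08, adjusted p = 0.331) did not pass.

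**Figure D3:**
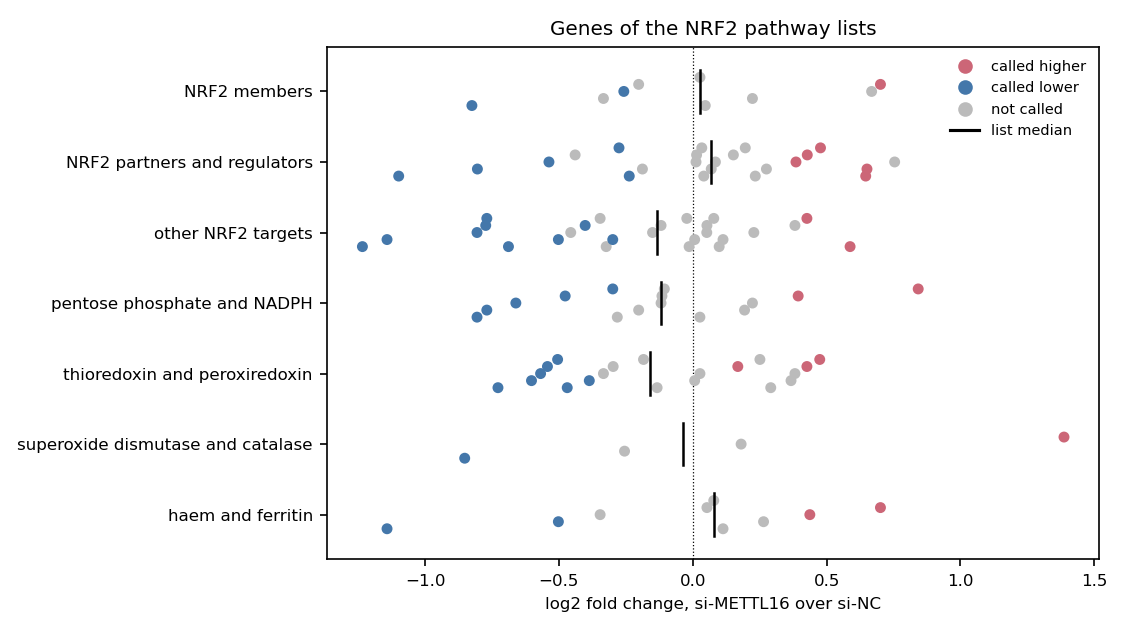
Log2 fold change of si-METTL16 over si-NC (horizontal axis) for each tested gene of the 9 described genes and the 6 lists (rows), coloured by the edgeR call, with a bar at the median of each row. Every row has genes called in each direction, and the medians lie between -0.16 and 0.08.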

How the data were processed

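The members and gene lists were chosen with earlier results of these data known. The authors deposited a raw count and an FPKM per gene and library. Per the labels' processing notes, HISAT2 2.0.4 and StringTie 1.3.0 were used with GRCh38. The counter, annotation and use of strand are not given in the sources used here, so overlapping and antisense genes are uncertain. The libraries were made with a SMARTER mRNA-Seq kit. For 27 symbols turned into dates, the symbol was restored from the gene identifier.

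From the counts, TMM-scaled CPM were computed, genes were filtered with filterByExpr (minimum count 10, minimum total 15), and the quasi-likelihood test of edgeR 4.0.16 (R 4.3.3, glmQLFit and glmQLFTest) was run between groups (Benjamini-Hochberg, 0.05). The methods name limma, which was run as an alternative. The SE is the absolute log2 fold change over the root of F. The common biological coefficient of variation was 16.5%. With 3 against 3 samples an exact permutation test cannot go below 0.1 and was not used. The edgeR fit between groups was tested on simulated counts.

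Alternatives were the replicate number as a block, each library left out, no filter on low counts, at least 10 counts in every sample, DESeq2 1.42.0 size factors and its Wald test, and limma 3.58.1 on voom values and on log2 FPKM with a pseudocount of 1 or 0.1 (mean FPKM of at least 1, or no filter with the pseudocount of 1). Named genes were the 9 members, METTL16, their paralogues and direct partners, and, in each list, the called genes with the 2 highest and 2 lowest log2 fold changes. FTL, FTH1, the peroxiredoxins other than PRDX2 and the single markers KRT19, KRT7, CD68 and CD14 were named after their values were seen. Some genes that this rule takes are not reported here.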

Additional observations from a re-analysis of the deposited data

How the results depend on the processing

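Over the 15 alternatives, 4150 to 5487 genes were called in all (5418 as reported) and 2 to 4 of the 9 members (3 as reported). HMOX1, NQO1 and METTL16 kept their calls under all of them. OSGIN1 lost its call in 8 of the 13 alternatives that gave it a value, among them no filter on low counts (adjusted p = 0.079) and limma on log2(FPKM + 1) without a filter (log2 fold change -0.35, adjusted p = 0.117). It could not be tested where a mean FPKM of at least 1 was asked. With 1 library left out, the log2 fold change of KEAP1 ranged from -0.066 to 0.17, with -0.066 without si-NC replicate 2 and -0.048 without si-METTL16 replicate 2. The calls then ranged from 5 to 10 among partners and regulators (10 as reported), from 4 to 7 among pentose phosphate and NADPH genes (7 as reported) and from 6 to 9 among thioredoxin and peroxiredoxin genes (10 as reported). With limma on log2(FPKM + 1) without a filter, partners and regulators had 6 calls and superoxide dismutase and catalase genes 1, in place of 2, since SOD2 was no longer called. The cause of these changes was not tested. The si-NC level of each member per kilobase of the MANE Select transcript, added after seeing the data, moved from the deposited FPKM for all but ME1.

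The groups share replicate numbers, but the deviations of same-numbered samples correlated at 0.0253, 0.0371 and 0.0298 only, under the 0.1 set for pairing, although each sample correlated best with its own number. With the replicate number as a block, 5013 genes were called. NFE2L2 was then at 0.71 on the log2 scale (adjusted p = 0.00824) and OSGIN1 -0.84 (adjusted p = 0.0539), so 3 members were called, 2 higher and 1 lower. With 3 libraries a group, the precision for OSGIN1, at 33 to 109 counts a library, is also limited by depth.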

Other observations

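Genes whose profile over the 6 samples was most like that of a member were named by the lowest mean absolute difference of log2 CPM, each gene taken relative to its si-NC mean, among 7478 genes with a symbol and a level at or above the median. For NFE2L2 these included MAPK11 and DCAF5, with differences of 0.163 and 0.187. The log2 fold change was 0.66 for MAPK11 (adjusted p = 0.0366) and 0.75 for DCAF5 (adjusted p = 0.00928). For NQO1 they were COX7B, a subunit of cytochrome c oxidase, RRP1B and RPAP3, with differences of 0.0103, 0.0162 and 0.0169. For HMOX1 they were MGAT5B, LRIF1 and the integrin ITGA3, with differences of 0.0762, 0.0863 and 0.102. None of the genes named here is in the NRF2 lists described above.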
